A study of Mus musculus with 18 samples.

Results

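The 10 genes described here encode receptors and co-receptors that endothelial cells use to read growth, maturation and vasoactive signals: Kdr, Flt1 and Flt4 for vascular endothelial growth factors (VEGF), Tek and Tie1 for angiopoietins, Eng and Acvrl1 for bone morphogenetic proteins (BMP), S1pr1 for sphingosine-1-phosphate, Calcrl for adrenomedullin, and Nrp1 as a co-receptor for VEGF and semaphorins. They were taken by gene symbol, and each of the 10 was represented by exactly 1 feature of the array, among 19938 genes with a single symbol and 35557 features in all. The genes were proposed with the genotype differences of these same arrays already known, so in effect they were chosen by measured deleted minus control differences at 0, 2 and 24 h. Those differences are therefore given below as a description, and nothing is read from how many of them passed a threshold. The same holds for how those differences compare between times, since these are made from the same values. Tests are reported for the changes with time within a genotype and for ligands and partner genes outside the group, whose lists were also drawn up with earlier results of these arrays known.

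Total RNA of isolated mouse alveolar type II cells was profiled on 18 arrays, 3 in each of 6 groups. Type II cells are the surfactant-producing epithelial cells of the lung alveolus, and the mice were 7 to 8 weeks old. Control cells came from littermates labelled CEBP/a(flx/flx) that lacked either the rtTA or the Cre gene, so both genotypes carried the floxed Cebpa allele. Deleted cells came from mice labelled CCSP/rtTA/CEBPa(flx/flx), in which Cebpa, a transcription factor of type II cell differentiation, was removed conditionally in Clara cells and type II cells. Cells of each genotype were sampled after 0, 2 and 24 h of hyperoxia according to the series design, whereas the sample descriptions state air throughout. The deletion was therefore directed at epithelium and not at endothelium, and the labels do not say whether the arrays of a group came from separate animals, so the spread behind each p-value is that between samples, which may be technical.

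VEGF receptors are tyrosine kinases, of which Kdr carries most of the mitogenic signal in blood endothelium, Flt1 binds VEGF tightly with weak kinase activity, and Flt4 is best known from lymphatic endothelium. Tek, also called TIE2, is activated by angiopoietin 1 and keeps vessels quiescent, and Tie1 is its partner without a strong ligand of its own. Acvrl1, also called ALK1, is the type I receptor for circulating BMP9 and BMP10, and Eng is its co-receptor. In lung the capillary bed lies directly against the alveolar epithelium, and Nrp1, unlike most of the others, is also made by epithelial and other cells.

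The values are log2 expression levels, so a difference of 1 is a doubling of the measured level. Cebpa itself differed in deleted cells by -0.43 at 0 h (adjusted p = 0.429, limma), -1.10 at 2 h (adjusted p = 0.00461, limma) and -1.83 at 24 h (adjusted p = 8.19e-06, limma), and at each time all deleted arrays were below the controls. Arrays of 1 group correlated at 0.978 to 0.995 over all genes. The interquartile range of an array's values was 2.89 to 3.06 at 0 h and 1.82 to 2.55 later. The narrowest were deleted 24 h replicates 1 and 2, at 1.89 and 1.82. The labelled cell type carried its defining markers at high level. Across the 6 group means, surfactant protein genes Sftpc and Sftpb lay at 13.69 to 14.60 and at 12.93 to 13.83, and Abca3, the lamellar body lipid transporter, at 10.43 to 12.04.

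Promoter sequence was examined because 9 of the 10 receptors moved together across the arrays, as described further on. That movement contains the genotype differences by which the genes were chosen. Windows of 250 bases before the gene start were taken from RefSeq promoters of build GRCm38.p6, in which 8 of the 10 genes were matched; Acvrl1 and S1pr1 were not. The windows were searched on both strands for AGGAAG or CGGAAG, 2 strings sharing GGAAG that are core binding sites of ETS factors, a family that includes regulators of endothelial genes. At least 1 match lay in 5 of 8 windows, against 39.2% of 32851 promoter windows of the same length. Those 5 were Flt1, Tie1, Eng, Calcrl and Nrp1, so the receptor that moved apart had a match. Kdr, Flt4 and Tek, which moved with the others, had 0 matches of these 2 strings. Other strings with an ETS core were not searched, and a link between matches and movement was not tested. At least 2 matches lay in 3 of 8 windows, those of Flt1, Tie1 and Eng, against 11.3% of all windows. The letters TTGCNNAA, a core of the site bound by C/EBP factors, were in 0 of 8 windows and in 9.6% of all windows, which says only that these letters are not in these windows. The median share of G and C was 62.0% in the 8 windows and 52.4% in all. The windows of the 3 genes with 2 ETS matches are shown beside that of Nrp1, the receptor that moved apart from the other 9, with the matches on either strand in capitals, each read 5′ to 3′ on the gene's strand.
Flt1, chr5:147726012-147726261, minus strand: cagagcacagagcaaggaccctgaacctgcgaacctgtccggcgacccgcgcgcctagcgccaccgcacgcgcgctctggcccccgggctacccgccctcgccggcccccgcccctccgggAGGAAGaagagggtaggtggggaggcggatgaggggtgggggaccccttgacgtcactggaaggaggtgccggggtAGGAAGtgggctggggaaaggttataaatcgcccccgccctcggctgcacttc
Tie1, chr4:118489850-118490099, minus strand: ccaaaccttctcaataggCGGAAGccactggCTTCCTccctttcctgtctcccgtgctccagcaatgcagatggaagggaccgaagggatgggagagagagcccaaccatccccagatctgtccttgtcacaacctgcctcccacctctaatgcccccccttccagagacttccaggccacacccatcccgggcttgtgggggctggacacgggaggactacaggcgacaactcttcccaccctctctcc
Eng, chr2:32646345-32646594, plus strand: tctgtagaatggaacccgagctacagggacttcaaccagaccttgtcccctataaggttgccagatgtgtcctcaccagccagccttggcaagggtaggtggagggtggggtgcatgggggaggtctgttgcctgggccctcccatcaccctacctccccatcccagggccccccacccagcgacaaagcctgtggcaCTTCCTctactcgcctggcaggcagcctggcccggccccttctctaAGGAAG
Nrp1, chr8:128358823-128359072, plus strand: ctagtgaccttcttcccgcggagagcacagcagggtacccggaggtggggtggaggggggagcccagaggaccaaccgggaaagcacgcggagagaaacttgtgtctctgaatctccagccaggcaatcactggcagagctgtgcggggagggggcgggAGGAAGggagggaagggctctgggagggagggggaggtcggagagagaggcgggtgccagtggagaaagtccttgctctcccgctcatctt

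The VEGF receptor Kdr was higher in Cebpa-deleted isolates at each time. Its control arrays read 8.96, 8.63 and 9.04 at 0 h, 8.78, 8.77 and 8.49 at 2 h, and 8.66, 8.94 and 8.37 at 24 h. Its deleted arrays read 9.84, 9.89 and 9.69 at 0 h, 8.96, 9.90 and 9.94 at 2 h, and 9.52, 9.78 and 9.55 at 24 h. Every deleted array lay above every control array of its time, and deleted 2 h replicate 2, at 8.96, was the deleted array nearest to the controls. The difference was 0.93 (SE 0.20), 0.92 and 0.96 at 0, 2 and 24 h, or 1.90-fold at 0 h.

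Flt1, the high-affinity VEGF receptor, read 7.51, 7.32 and 7.37 in controls and 8.21, 8.38 and 8.03 in deleted cells at 0 h. At 2 h the arrays read 7.76, 7.60 and 7.39 against 7.90, 8.77 and 8.91, and at 24 h 7.57, 8.18 and 7.92 against 8.70, 8.55 and 8.64. The groups did not overlap at any time, and the difference was 0.81 (SE 0.20), 0.95 and 0.74. Flt4, the receptor for VEGF-C and VEGF-D, showed the smallest excess of the 9 receptors that were higher, at 0.46 (SE 0.13), 0.33 and 0.36. Its 2 h groups overlapped, with deleted replicate 2 at 6.63 below control replicates at 6.70 and 6.72, while the other two deleted arrays read 6.99 and 7.03.

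The angiopoietin receptor Tek read 8.09, 8.02 and 8.22 in controls and 8.87, 9.31 and 8.87 in deleted cells at 0 h. At 2 h it read 8.13, 8.20 and 7.71 against 8.66, 9.54 and 9.68, and at 24 h 8.01, 8.74 and 8.32 against 9.59, 9.61 and 9.33. No deleted array fell within the control range of its time, and the difference was 0.91 (SE 0.22), 1.28 and 1.15. Tie1, the partner of Tek, differed by 0.93 (SE 0.20), 0.96 and 0.69, again with no overlap; the closest arrays were deleted 2 h replicate 2 at 8.27 and control 2 h replicate 1 at 8.23.

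Eng, the BMP co-receptor, read 8.41, 8.14 and 8.45 in controls and 9.20, 9.59 and 9.18 in deleted cells at 0 h. At 2 h it read 8.34, 8.40 and 8.08 against 8.99, 9.90 and 10.03, and at 24 h 8.58, 9.29 and 8.77 against 9.47, 9.70 and 9.70. The groups were apart at each time, although control 24 h replicate 2 came close to the deleted arrays, and the difference was 0.99 (SE 0.22), 1.36 and 0.75. Acvrl1, the kinase that signals with Eng, differed by 0.92 (SE 0.18), 0.87 and 0.73. Its levels ran from 8.69 to 9.15 over the 9 control arrays and from 9.23 to 10.23 over the 9 deleted arrays, so the 2 ranges did not meet.

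S1pr1, the sphingosine-1-phosphate receptor that tightens endothelial junctions, read 9.04, 8.87 and 9.10 in controls and 9.83, 10.04 and 9.96 in deleted cells at 0 h. At 2 h it read 8.96, 8.81 and 8.59 against 9.32, 10.48 and 10.70, and at 24 h 8.55, 9.46 and 9.01 against 9.81, 10.18 and 10.01. The difference was 0.94 (SE 0.26), 1.38 and 1.0, and the SD of the deleted 2 h arrays, 0.74, was the largest of any receptor in any group. Calcrl, which forms the adrenomedullin receptor with RAMP proteins, had the largest difference at 0 and 24 h, 1.12 (SE 0.21) and 1.21, and 1.32 at 2 h. Its controls ran from 9.02 to 9.67 and its deleted arrays from 9.79 to 10.94 over the 3 times, with no overlap.

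Nrp1 went the other way. Its arrays read 11.54, 11.45 and 11.48 in controls and 11.39, 11.38 and 11.32 in deleted cells at 0 h, 10.64, 10.94 and 10.95 against 11.00, 10.56 and 10.35 at 2 h, and 10.31, 10.36 and 10.15 against 9.63, 9.68 and 9.90 at 24 h. The deleted arrays were below all controls at 0 and 24 h and overlapped them at 2 h, where deleted replicate 2 was the highest of the 6 arrays. The difference was -0.13 (SE 0.13), -0.20 and -0.54. The 24 h value was -0.19 after a second quantile normalization and 0.066 with each array's interquartile range as a covariate.

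**Figure D1:**
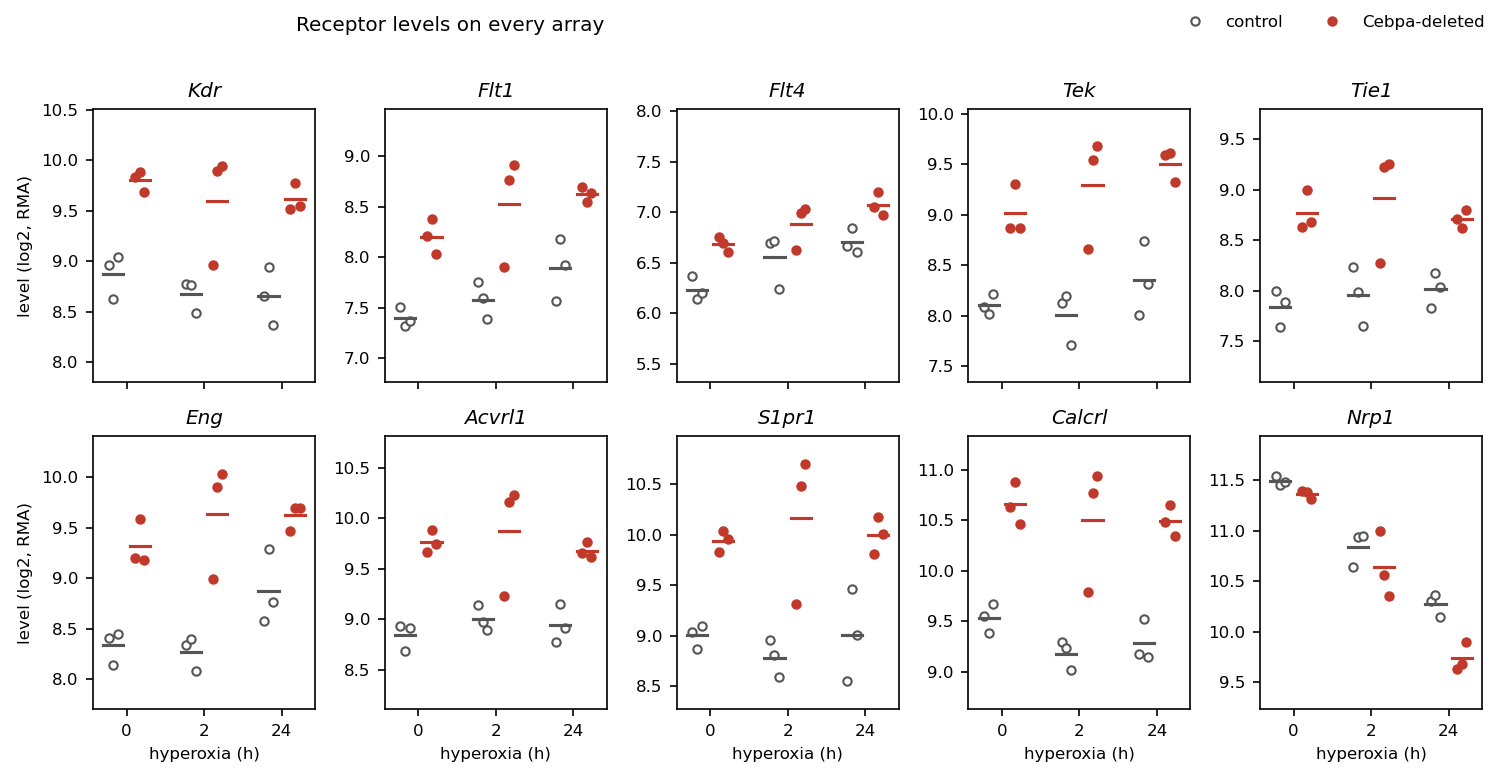
Level of each receptor gene (vertical axis, log2, made with RMA) on each of 18 arrays against hours of hyperoxia (horizontal axis); open points are controls, filled points Cebpa-deleted cells, bars are means of 3 arrays, and each panel spans the same number of log2 units. Deleted arrays lie above all controls of their time at 0, 2 and 24 h for 8 receptors, and Nrp1 falls with time in both genotypes.

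Counted over the group, 5 of 10 receptors passed an adjusted p below 0.05 (limma) as higher at 0 h, where 0.677% of all genes did and 0.858% were called in either direction. At 2 h 8 of 10 passed as higher, against 1.2% of all genes, with 1.4% called in either direction. At 24 h 9 passed as higher and Nrp1 as lower, against 24.3% and 26.4% of all genes. Averaged over the times, 9 were higher and Nrp1 lower, against 7.13% and 9.75% of all genes, or 16.9% together. Kdr, Tie1, Eng, Acvrl1 and Calcrl passed at all 3 times, as did 0.311% of genes. All deleted arrays exceeded all controls for 9 receptors at 0 h, 8 at 2 h and 9 at 24 h, and for 8.49%, 6.95% and 31.7% of all genes; 8 receptors and 1.1% of genes did so at every time. Nrp1 lay below all controls at 0 and 24 h, as did 8.77% and 30.4% of all genes. Since the genes were proposed with these differences known, the counts are not evidence of a group effect. The median difference of the 10 was 0.92, 0.95 and 0.74 at 0, 2 and 24 h, and that of all genes was -0.00, -0.02 and 0.05.

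Single arrays decided the calls at the early times but not the direction of the 9 higher receptors. Without any 1 of the 6 arrays at 0 h, 0 to 2 receptors passed there, always with 9 at an unadjusted p below 0.05, and 8 passed without deleted 2 h replicate 2. At 2 h, 4 passed without control replicate 2, 2 without control replicate 3, 0 without deleted replicate 3 and 4 without deleted replicate 4; 8 of the 10 still had an unadjusted p below 0.05 when 0 passed. At 24 h 8 to 10 passed without any 1 array, but 0 without both narrow deleted arrays, with 8 at an unadjusted p below 0.05 and differences of 0.26 to 1.05 for the 9 receptors other than Nrp1. With each array's interquartile range as a covariate 0 passed at 24 h and 0 had an unadjusted p below 0.05; 8 receptors then differed by 0.03 to 0.40 and Flt4 by -0.15. The interquartile range averaged 2.47 in control and 1.94 in deleted 24 h arrays, and its part in the 24 h differences was not tested. Calls over all 19938 genes moved as well, from 171, 280 and 10110 at 0, 2 and 24 h with all arrays. Without 1 of the arrays compared they lay within 32 to 139, 25 to 729 and 6128 to 10988. The average over the times kept all 10 calls whichever of the 18 arrays was dropped, with 2163 to 5783 of all genes called. Its Nrp1 difference of -0.29 lost the call at -0.16 after a second quantile normalization, -0.12 with the covariate, -0.23 without both narrow arrays and -0.17 over 0 and 2 h only, and its Flt4 difference of 0.38 lost it at 0.23 with the covariate. Deleted 2 h replicate 2 was low for the 9 receptors, high for Nrp1, and read 9.98 for Cebpa against 8.96 and 9.31 in its group.

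**Figure D2:**
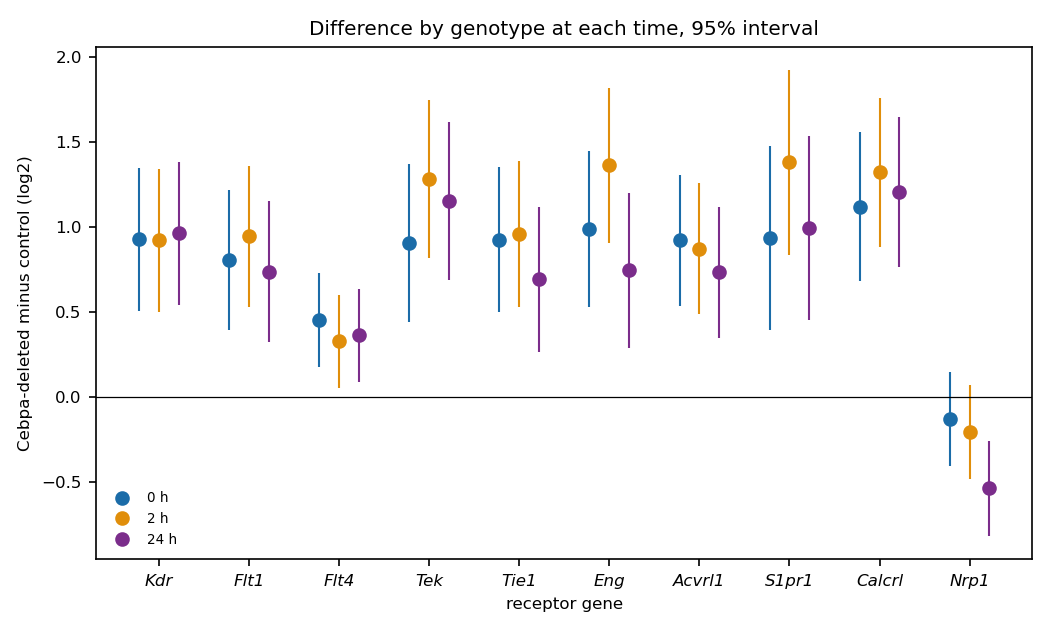
Cebpa-deleted minus control difference (vertical axis, log2) of each receptor gene (horizontal axis) at 0, 2 and 24 h (colours), with the 95% interval from limma. The 9 receptors other than Nrp1 lie between 0.33 and 1.38, and Nrp1 between -0.54 and -0.13.

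The size of the genotype difference at one time can be set against that at another, again as a description, since it is made from the values that chose the genes. The change in the Kdr difference from 0 to 24 h was 0.04, with a 95% interval of -0.56 to 0.63. For Eng the change from 2 to 24 h was -0.62, with an interval of -1.26 to 0.03. For Nrp1 the change from 0 to 24 h was -0.41, with an interval of -0.80 to -0.01. The intervals were wide, and they do not show that the differences were equal. Calls by limma numbered 0 of 10 receptors for 2 h against 0 h, 0 for 24 h against 0 h and 0 for 24 h against 2 h, beside 0%, 14.3% and 30.8% of all genes. At an unadjusted p below 0.05 the counts were 0, 1 and 0, and with trend and robust moderation 0 were called in each.

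With time, Nrp1 fell in both genotypes. In controls Nrp1 fell by 0.65 (SE 0.13) from 0 to 2 h and by 0.57 from 2 to 24 h (adjusted p = 0.000329 and 0.00853, limma). In deleted cells it fell by 0.73 from 0 to 2 h and by 0.90 from 2 to 24 h (adjusted p = 0.00017 and 0.000281, limma), or by 1.63 in all, and 41.5% of all genes fell from 0 to 24 h. Its 3 arrays of each later time lay below all arrays of the earlier time in either genotype, as did 41.9% of all genes from 0 to 2 h, 23.2% from 2 to 24 h and 39.8% from 0 to 24 h in controls, and 36.2%, 20.3% and 42.3% in deleted cells. Large shares of all genes were called over these spans, 70.1% from 0 to 2 h and 12.4% from 2 to 24 h in controls, and 63.1% and 31.4% in deleted cells. Those called lower were 39.4% and 4.46% of all genes in controls, and 36.2% and 19.6% in deleted cells. The fall in controls from 0 to 2 h was -0.09 (adjusted p = 0.555, limma) after a second quantile normalization and 0.22 with the interquartile range as a covariate. In deleted cells the 0 to 2 h fall was -0.18 and -0.02 under those settings, and the 2 to 24 h fall was -0.43 with the covariate and -0.74 without both narrow arrays, with none of these 4 passing. The 2 to 24 h fall in controls kept its call under every alternative setting tried except a required change of at least 1.5-fold.

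From 0 to 24 h in controls, 3 of the 10 receptors rose and Nrp1 fell by 1.22 (adjusted p = 1.36e-06, limma), where 25.3% of all genes rose and 34.6% fell, or 59.9% together. Flt4 rose by 0.48 (SE 0.13, adjusted p = 0.00476, limma), Eng by 0.54 (SE 0.22, adjusted p = 0.0389, limma) and Flt1 by 0.49 (SE 0.20, adjusted p = 0.0383, limma). All 3 control arrays at 24 h lay above all 3 at 0 h for each of these genes, as for 29.1% of all genes. The Flt4 call held without any 1 of the 6 arrays. That of Flt1 was lost without control 0 h replicates 2 or 3 or control 24 h replicates 2 or 3, with a change of 0.35 to 0.65 over the 6 fits. That of Eng was lost without control 0 h replicates 1 or 2 or control 24 h replicates 2 or 3, with a change of 0.34 to 0.69. All 3 rises turned to -0.23, -0.052 and -0.062 for Flt1, Flt4 and Eng with the interquartile range as a covariate, the measure in which the 0 h arrays stood apart; its part in these changes was not tested.

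In deleted cells, 1 receptor rose from 0 to 24 h, Flt4 by 0.38 (adjusted p = 0.0128, limma), against 36% of all genes called higher and 77.6% called in all, and the call was lost without deleted 24 h replicate 2. Tek changed by 0.49 (adjusted p = 0.0508, limma) and Flt1 by 0.42 (adjusted p = 0.0574, limma), and neither passed. From 0 to 2 h, Flt4 rose in controls by 0.32 (adjusted p = 0.0379, limma), where 30.7% of all genes rose; the call was lost without control 0 h replicates 2 or 3 or control 2 h replicates 1 or 2. In deleted cells 0 receptors rose from 0 to 2 h, against 26.9% of all genes, by limma with default or with trend and robust moderation, and Nrp1 was the 1 with an unadjusted p below 0.05. Without deleted 2 h replicate 2, 7 receptors rose from 0 to 2 h in deleted cells: S1pr1 by 0.65, Flt1 and Eng by 0.64, Tek by 0.59, Tie1 by 0.47, Acvrl1 by 0.43 and Flt4 by 0.32. From 2 to 24 h, Nrp1 was the only receptor of the 10 called in either genotype. Without deleted 2 h replicate 2 the count was 2 in controls, with Eng at 0.60. It was 4 in deleted cells, with Tie1 at -0.53, Acvrl1 at -0.52 and S1pr1 at -0.59. Calls over all genes moved too. For deleted cells from 2 to 24 h they numbered 6254 of 19938 with all arrays. They ran from 2922 to 8093 when 1 of the arrays compared was left out. The shares of all genes without deleted 2 h replicate 2 are not given for these spans. The receptor counts of that fit are therefore not read as particular to these genes.

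General endothelial genes moved with the receptors. Over 20 endothelial markers that are not among the receptors, the mean level ran from 7.82 to 8.06 in controls and from 8.66 to 8.88 in deleted cells at 0 h. It ran from 7.80 to 8.03 against 8.28 to 8.997 at 2 h, and from 7.86 to 8.40 against 8.51 to 8.65 at 24 h. The defining markers Cdh5, Pecam1 and Cldn5 were measured well above the lowest values of the arrays, at 8.77, 8.84 and 8.33 in controls and 10.22, 9.87 and 9.33 in deleted cells at 2 h. Of the 20 markers 9 were called higher at 0 h and 11 at 2 h, and none lower, where 0.677% and 1.2% of all genes were called higher. The marker list was also drawn up with earlier results of these arrays known, and its counts without single arrays are not given. At 24 h 13 were higher and Esam and Adgrf5 lower, where 24.3% of all genes were higher and 26.4% lower. Their part in the receptor differences was not tested. In such samples, more or fewer cells of a type and more or less RNA per cell cannot be told apart. Relative to the marker mean, the differences of the 9 receptors other than Nrp1 ran from -0.31 to 0.35 with a median of 0.16 at 0 h, from -0.46 to 0.59 with a median of 0.17 at 2 h, and from -0.10 to 0.75 with a median of 0.29 at 24 h. The marker mean itself differed by 0.77, 0.79 and 0.46. The median difference of the 20 markers was larger, at 0.88, 0.81 and 0.55, so the values depend on using the mean. Flt4 was the receptor that fell short of the markers at each time, Calcrl exceeded them by 0.35, 0.53 and 0.75, and Nrp1 differed from them by -0.90, -0.99 and -0.99.

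Other marker lists had calls mainly at 24 h, when 50.7% of all genes were called, 24.3% as higher and 26.4% as lower. Of 15 type II markers 14 were lower at 24 h, 2 at 2 h (Cebpa and Fgfr2) and 0 at 0 h (limma; 3 at an unadjusted p below 0.05; 0 with trend and robust moderation), and their mean level was 12.78 in controls and 12.62 in deleted cells at 0 h, 12.14 and 11.90 at 2 h, and 11.99 and 11.21 at 24 h. At 24 h 7 of 8 fibroblast, 5 of 9 lymphocyte, 4 of 8 pericyte and smooth muscle, and 2 of 6 airway markers were higher, the last being Scgb3a2 and Cyp2f2. Also at 24 h 7 of 9 type I cell markers were lower, and of 10 macrophage markers 3 were higher and 3 lower. Neither the 5 lymphatic endothelial nor the 4 platelet markers had a call at 24 h (limma, with default or trend and robust moderation), and 1 of each had an unadjusted p below 0.05. At 0 and 2 h, of these lists other than the endothelial and type II ones, the complement gene C1qb at 0 h was the single call, at 0.79, and it is named here after its value was seen.

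**Figure D3:**
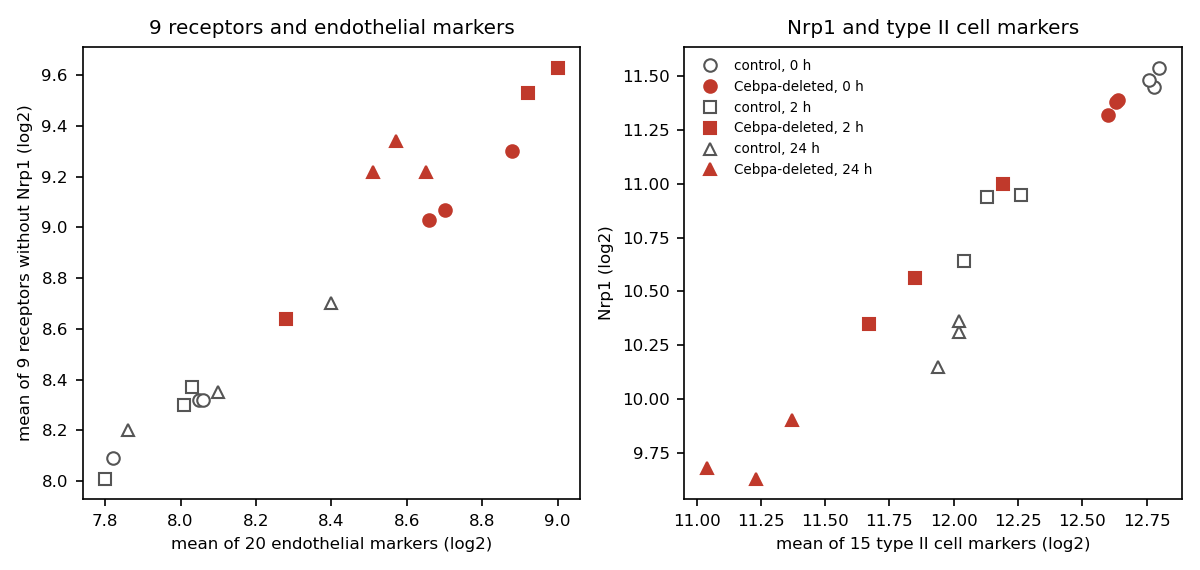
Left, mean log2 level of the 9 receptors other than Nrp1 against the mean of 20 endothelial markers; right, Nrp1 against the mean of 15 type II cell markers; each point is 1 of 18 arrays, with shape for time and fill for genotype. The receptors rise along with the endothelial markers over all arrays, and Nrp1 lies along the type II markers, from 11.54 on its highest array at 0 h to 9.63 on its lowest at 24 h.

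The 9 receptors followed each other across the 18 arrays, and Nrp1 did not follow them. Pearson's r of a receptor with the mean of the other receptors without Nrp1 ran from 0.778 for Flt4 to 0.975 for S1pr1. After the 6 group means were removed, r ran from 0.774 for Flt4 to 0.969 for Acvrl1. Arrays high for one receptor within a group thus tended to be high for the rest. These deviations were widest among deleted 2 h arrays, where the mean of the 9 receptors read 8.64 in replicate 2 against 9.53 and 9.63. Its SD was 0.55 there and 0.07 to 0.26 in the other groups. For Nrp1, r with the 9 was -0.38 over all arrays and -0.65 after removing the group means. With the mean of the type II markers Nrp1 had r of 0.966 and 0.902. Nrp1 also spread most among deleted 2 h arrays, with an SD of 0.33 against 0.04 to 0.17 in the other groups. How far the r values after removing the group means rest on that group was not tested. These are descriptions over arrays that share groups and may share normalization, with n = 18. The r values over all 18 arrays also contain the genotype differences by which the genes were chosen, so that choice fixed them in part. This holds too for the likeness over all arrays that follows. The other genes most like the mean of the 10 receptors were Pecam1 (r = 0.991), Fmo1 (0.987), Slfn5 and Cdh5 (0.983 each), Thbd (0.977), Cd93 (0.975), Cd34 (0.972) and Bcl6b (0.968), of which Pecam1, Cdh5, Cd93 and Cd34 belong to the endothelial marker list. By deviations from the group means the nearest were Pecam1 (0.992), Piezo2 (0.976), Cdh5 (0.972), Slfn5 (0.966) and Rasip1 (0.964).

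Vegfa, the main ligand of Kdr and Flt1, read 10.49, 10.59 and 10.27 in controls and 9.72, 9.60 and 9.97 in deleted cells at 24 h. The groups were apart, and Vegfa fell by 0.69 (SE 0.13, adjusted p = 0.000659, limma) with the deletion, whereas it differed by 0.11 at 0 h and -0.19 at 2 h. Vegfb, a ligand of Flt1, fell by 0.41 at 24 h (adjusted p = 0.00347, limma). Vegfc and Vegfd, the ligands of Flt4, and Pgf passed at no single time. Vegfc was higher by 0.31 averaged over the times (SE 0.08, adjusted p = 0.0155, limma), a call that held without any 1 array; it was lost with the interquartile range as a covariate, without both narrow deleted arrays and over 0 and 2 h only. Of the 12 VEGF ligands and co-receptors 0 were called at 0 h (limma; 3 at an unadjusted p below 0.05; 0 with trend and robust moderation), 1 was higher at 2 h, and 1 was higher and 4 lower at 24 h. The exception in direction was Sema3c, a semaphorin that acts through neuropilins, which was higher by 1.27 at 2 h (adjusted p = 0.00813, limma) and 0.65 at 24 h. The Sema3c calls were lost without control replicate 3 or deleted replicate 3 at 2 h, and without control replicates 1 or 3 or deleted replicate 1 at 24 h. Sema3a, another neuropilin ligand, was 1.36 and 1.25 higher at 0 and 2 h without passing and fell by 1.06 at 24 h (adjusted p = 0.0226, limma). Its call at 24 h was lost without control replicate 2 or deleted replicates 1 or 2, with a difference of -1.17 to -0.87. Plxna2, a semaphorin receptor, fell by 0.72 at 24 h (adjusted p = 0.000224, limma). Without both narrow deleted arrays, Vegfa differed by -0.49 and Plxna2 by -0.41 at 24 h, and neither passed; over single arrays left out, Vegfa kept its 24 h call at -0.80 to -0.61.

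Among the angiopoietin genes, the ligands Angpt1 and Angpt2 passed at no time; Angpt1 read 4.32 in controls and 4.65 in deleted cells at 24 h, and Angpt2 5.83 and 5.77. The endothelial phosphatase Ptprb, which dephosphorylates Tek, was higher by 1.04 at 2 h and 0.85 at 24 h (adjusted p = 0.0217 and 0.00557, limma) and by 0.90 at 0 h without passing. The 2 h call was lost without control replicates 2 or 3 or deleted replicates 3 or 4, with a difference of 0.87 to 1.33. Svep1, a matrix protein that binds Tie1, was higher by 0.64, the Tek adaptor Dok2 by 0.46 and the ligand Angpt4 by 0.39 at 24 h, as was Angptl1, named after its value of 0.27 was seen. The Angpt4 call was lost without control replicates 1 or 2 or deleted replicates 1 or 2, with a difference of 0.27 to 0.50. Of the 8 genes of the list 0 were called at 0 h (limma; 1 at an unadjusted p below 0.05; 0 with trend and robust moderation), 1 was higher at 2 h and 5 at 24 h.

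On the BMP side, Bmp6 and the type II receptor Bmpr2 were higher in deleted cells and Bmp2 was lower. Bmp6 differed by 0.75, 0.82 and 0.60 at 0, 2 and 24 h (adjusted p = 0.0393, 0.0166 and 0.00826, limma). The Bmp6 call at 0 h was lost without any 1 of the 6 arrays, and at 2 h without control replicates 1 or 3 or deleted replicates 3 or 4. Bmpr2, the receptor that pairs with Acvrl1, read 9.29, 9.43 and 9.32 in controls and 9.82, 10.34 and 10.25 in deleted cells at 2 h. The groups did not overlap, and the difference was 0.79 (SE 0.11, adjusted p = 0.0026, limma), a call that held without any 1 array of that time; it was 0.44 at 24 h (adjusted p = 0.00505, limma). Bmp2 read 8.97, 8.83 and 9.03 in controls and 7.25, 7.35 and 7.75 in deleted cells at 24 h. It fell by 1.49 there (SE 0.15, adjusted p = 9.29e-06, limma) and by 0.68 at 2 h, where the call was lost without control replicates 1 or 3 or deleted replicates 3 or 4. Gdf2, the gene of BMP9, was higher by 0.28 at 24 h (adjusted p = 0.0447, limma) and Bmp10 passed at no time. At 24 h the type I receptor Bmpr1a fell by 0.70 and the type II receptor Acvr2a fell by 0.85. Of 18 genes of this list 1 was higher at 0 h, 2 were higher and 1 lower at 2 h, and 6 were higher and 7 lower at 24 h.

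Of 13 BMP signal carriers and targets, 0 were called at 0 h (limma; 4 at an unadjusted p below 0.05; 0 with trend and robust moderation). Tmem100, an endothelial target of Acvrl1, was higher by 1.07 at 2 h and 0.83 at 24 h (adjusted p = 0.0189 and 0.00668, limma). The 2 h call was lost without control replicates 2 or 3 or deleted replicates 3 or 4, with a difference of 0.87 to 1.39. At 24 h Smad1, Smad4 and Smad5, which carry the signal to the nucleus, differed by -0.35, -0.29 and -0.26, and each passed. The Smad4 call was lost without control replicate 3 or deleted replicate 2, and that of Smad5 without control replicates 1 or 3 or deleted replicates 1 or 2. The target genes Id1 and Id3 passed at no time.

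For sphingosine-1-phosphate, the receptor S1pr3 was higher by 0.70 and the exporter Spns2 by 0.66 at 24 h (adjusted p = 0.00312 and 0.000572, limma), and S1pr4, known from lymphocytes, by 0.64. Plpp3, a lipid phosphatase that degrades the ligand, was higher by 0.77 at 2 h (adjusted p = 0.0266, limma) with overlapping groups, a call lost without control replicates 2 or 3 or deleted replicates 3 or 4. The synthesizing kinases Sphk1 and Sphk2 passed at no time. The lyase Sgpl1 fell by 0.34 at 24 h with overlapping groups, a call lost without control replicates 1 or 3 or deleted replicates 1 or 2, with a difference of -0.50 to -0.23. Of 10 genes 0 were called at 0 h (limma; 3 at an unadjusted p below 0.05; 0 with trend and robust moderation), 1 was higher at 2 h, and 3 were higher and 1 lower at 24 h.

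The partners of Calcrl moved apart. Ramp2, whose protein makes Calcrl an adrenomedullin receptor, read 8.82, 8.85 and 8.69 in controls and 9.11, 10.01 and 10.15 in deleted cells at 2 h. All deleted arrays were above the controls, and the difference was 0.98 at 2 h (adjusted p = 0.0188, limma), 0.66 at 24 h (adjusted p = 0.0135, limma) and 0.82 at 0 h without passing. The 2 h call held without deleted replicate 2 alone, with a difference of 0.78 to 1.30 over the 6 fits. The 24 h call was lost without control replicate 1, with a difference of 0.45 to 0.81 over the fits. Ramp3 was higher by 0.62 at 24 h, and Ramp1, the partner for calcitonin gene-related peptide, fell by 0.58, a call lost without control replicate 3 or deleted replicate 2. Of the ligands, Adm and Adm2 passed at no time, and Calcb was higher by 0.61 at 24 h (adjusted p = 0.00386, limma). Of 9 genes measured 0 were called at 0 h (limma; 2 at an unadjusted p below 0.05; 0 with trend and robust moderation), 1 was higher at 2 h, and 4 were higher and 2 lower at 24 h, among them Ackr3 at 0.49 and Crcp at -0.46, both named after their values were seen. The 24 h calls of partner genes stand beside the 50.7% of all genes called then, 24.3% as higher and 26.4% as lower. The up to 4 called genes per list with the largest 24 h difference were followed under other settings. Without both narrow deleted 24 h arrays, Bmp2, at -1.19, and Acvr2a, at -0.71, kept their calls, and the others of these lost them. With the interquartile range as a covariate none of these kept its call, Bmp2 at -0.85 included. The 24 h calls of Vegfb, Bmpr2, Gdf2, Angptl1, Ackr3 and Crcp were not followed in this way.

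Among the up to 4 called genes per list with the largest difference averaged over the 3 times, 8 kept the call without any 1 array, without both narrow arrays, after the second quantile normalization, with the covariate and over 0 and 2 h only. These were Sema3c at 0.88, Ptprb at 0.93, Bmp6 at 0.72, Bmpr2 at 0.53, Bmp2 at -0.88, Tmem100 at 0.93, Spns2 at 0.45 and Ramp2 at 0.82. The others of these, whose call was lost under at least 1 of those settings, were Vegfc, Svep1, Smad6, Hey1, Plpp3, S1pr3, S1pr4, Ramp3 and Calcb, which were higher, and Vegfa, Plxna2, Acvr2a and Ramp1, which were lower.

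**Figure D4:**
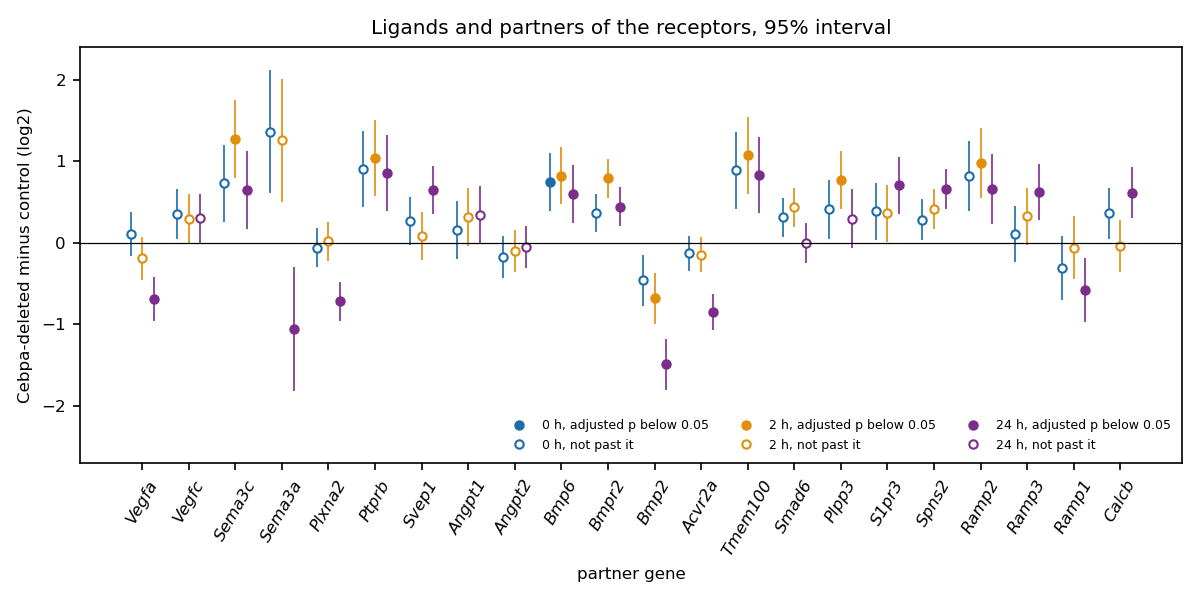
Cebpa-deleted minus control difference (vertical axis, log2) with its 95% interval for 22 ligands and partner genes (horizontal axis) at 0, 2 and 24 h (colours); filled points have an adjusted p below 0.05 from limma over 19938 genes. Bmp6, Ptprb, Ramp2 and Tmem100 lie above 0 at each time, and Bmp2 lies below 0 at each time. Vegfa, Plxna2 and Acvr2a are lower at 24 h.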

How the data were processed

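The deposited values were log2 expression levels made with RMA, per the submitters' processing notes; the sources used here do not give which arrays were normalized together. Of 35557 features 21789 carried 1 gene symbol, 1621 several and 12147 none, and features with several symbols or none were not used. Where several features named 1 gene (999 genes), the feature of highest mean over the 18 arrays stood for it, leaving 19938 genes. A linear model with 6 group means was fitted to all genes with limma 3.58.1 in R 4.3.3, with moderated tests, 95% intervals and Benjamini-Hochberg adjustment over all 19938 genes; a call is an adjusted p below 0.05. The number of arrays, 3 per group, limits the precision. The script was tested on simulated data. Named beside the receptors are up to 4 called genes with the largest change per partner list and comparison, ligands and co-receptors by role, and the 8 and 5 genes nearest in pattern. The members and lists were chosen with earlier results of these data known. Alternatives were another normalization, centring, an interquartile range covariate, only the groups compared, a replicate block, other gene filters, trend and robust moderation, and arrays left out.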

Additional observations from a re-analysis of the deposited data

Results flagged for a closer look

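The genotype difference was compared between times in the same fit, and for these ligands and partner genes it differed by limma with an adjusted p below 0.05. From 0 to 24 h the Cebpa-deleted minus control difference changed by -0.80 for Vegfa, -2.42 for Sema3a, -0.66 for Plxna2, -1.03 for Bmp2 and -0.72 for Acvr2a. From 2 to 24 h it changed by -0.50 for Vegfa, -2.31 for Sema3a, -0.74 for Plxna2, -0.81 for Bmp2, -0.70 for Acvr2a, -0.50 for Smad1, -0.49 for Smad5 and -0.44 for Smad6, the inhibitory SMAD. From 2 to 24 h it changed by 0.56 for Svep1 and 0.65 for Calcb. The calls of Sema3a, Bmp2 and Acvr2a for both spans, and of Plxna2, Smad1 and Smad5 from 2 to 24 h, held in all 12 fits that left out 1 of the arrays involved. That of Vegfa from 0 to 24 h was lost without deleted 24 h replicate 2, and from 2 to 24 h it held in 4 of 12 fits. Plxna2 from 0 to 24 h held in 9, Calcb in 6, Svep1 in 3 and Smad6 in 2 of 12 fits. These tests stand beside 14.3% of all genes called from 0 to 24 h and 30.8% from 2 to 24 h.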

How the results depend on the processing

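The count of receptors with a genotype call was 5 at 0 h, and became 0 after a second quantile normalization, 0 with the replicate block, 8 with the interquartile range covariate, 8 with only the groups compared, and 0 to 8 without 1 array. At 2 h the count of 8 became 5 after the second normalization, 0 with only the groups compared, 0 with the replicate block and 0 to 8 without 1 array. At 24 h the count of 10 became 0 with the covariate and 0 without both narrow arrays, and 8 to 10 without 1 array. For the 2 to 24 h change in controls the count of 1 became 4 with the covariate, 2 with only the groups compared, 0 with a required 1.5-fold change, and 1 to 2 without 1 array. In deleted cells the 2 to 24 h count of 1 became 0 with the covariate, 0 without both narrow arrays, and 1 to 4 without 1 array. Where these counts became 0, the number at an unadjusted p below 0.05 was 9 at 0 h and 8 at 2 h; it was 0 at 24 h with the covariate and 8 without both narrow arrays, and 5 and 1 for the deleted 2 to 24 h change. For the difference between 24 and 0 h the count of 0 became 1 with only the groups compared. With the covariate these differences turned: Flt4 to -0.15 and Nrp1 to 0.066 at 24 h, Flt1 to -0.23, Flt4 to -0.052 and Eng to -0.062 from 0 to 24 h in controls, Flt4 to -0.43 and Nrp1 to 0.22 from 0 to 2 h in controls, and Flt4 to -0.62 from 0 to 24 h in deleted cells. Among partners at 24 h the covariate gave Sema3c -0.037, Dok2 -0.13, Angpt4 -0.13, Bmpr1a 0.091, Smad5 0.093 and S1pr4 -0.19, and for Vegfa a 2 to 24 h change of 0.073 in the genotype difference. The second normalization gave Kdr 0.58, Tie1 0.62, Acvrl1 0.69 and Calcrl 0.65 from 0 to 24 h in deleted cells, and Smad4 0.070, Smad5 0.083 and Sgpl1 0.011 at 24 h. The cause was not tested. The labels state no pairing, and same-numbered arrays had correlations of deviations from -0.24 to 0.06. With 3 arrays per group these correlations cannot decide whether arrays were paired. The replicate block is given here only. Centring, other gene filters and trend and robust moderation left the receptor counts within 1.5 times. Only 3 arrays per group limit all of these counts. Calls over all genes also moved when single arrays were left out, as given above. Their shares under the other settings are not given, so the receptor counts are not read as particular to these genes.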
